A study of Rattus norvegicus with 9 samples.

Results

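The small leucine-rich proteoglycans (SLRPs) are a family of secreted matrix proteins, and their genes were followed here in cultured rat fibroblasts (Fb) of 3 origins. The members were chosen by gene symbol: Dcn, Bgn, Lum, Fmod, Ogn, Omd, Aspn, Prelp, Podn and Kera. Of these 10 genes, 9 had a row under their symbol among the 32883 genes of the tables, and Podn (podocan) was not analysed here. Fb-Epn came from the epineurium and Fb-Par from the parenchyma of sciatic nerves of 2 male Lewis rats, whereas abdominal skin of 1 further male rat gave Fb-Skn. All rats were wild type (WT) and 10 weeks old, and all cells had been passaged once in DMEM/F-12 with 10% fetal bovine serum. Each type had 3 libraries of poly(A) RNA, with 10084584 to 12310506 counts per library. The 3 samples of each type thus come from fewer than 3 animals, and the p-values measure only the spread between these samples, which may be technical. Between nerve and skin, the tissue, the animal and the body site differ at once and cannot be told apart.

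An SLRP has a short core built of leucine-rich repeats, which binds the surface of collagen fibrils, and many members carry chondroitin, dermatan or keratan sulfate chains. Decorin (Dcn), biglycan (Bgn) and asporin (Aspn) form class I. Lumican (Lum), fibromodulin (Fmod), PRELP (Prelp), keratocan (Kera) and osteomodulin (Omd) form class II, and osteoglycin (Ogn) belongs to class III. They are known for setting the width and spacing of collagen fibrils and for binding growth factors such as TGF-beta. In nerve, collagen fibrils fill the epineurium around the fascicles and the endoneurium between the axons.

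Levels are given as TPM (counts scaled for gene length and for the total of the library), and differences as log2 fold changes of edgeR's quasi-likelihood test on raw counts with TMM normalization. A gene was called at a Benjamini-Hochberg adjusted p under 0.01 over all 13273 tested genes, and past the fold at a log2 fold change above 2 or below -2. Of the 9 genes with a row, 7 passed the filter on low counts. The rows under the symbols Kera and Omd had 0 counts in all 9 libraries (for Omd, a further row with counts is given below). For such a row, a count of 0 allows up to 0.244 to 0.297 CPM, which is 3 counts scaled to the library total and covers counting error only.

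The labelled cell type was checked against its markers. The 6 fibroblast markers with a row (Col1a1, Col3a1, Thy1, Pdgfra, Vim and Fn1) were detected in every library and summed to 31948 to 42920 TPM. Summed levels of markers of other cells also differed between the types. The 7 Schwann cell markers used summed to 190.2 to 201 TPM in Fb-Epn, 254 to 262 TPM in Fb-Par and 10.5 to 13.2 TPM in Fb-Skn, where Sox10, Erbb3 and Cdh19 were at 0. The 7 macrophage markers summed to 1124 to 1183 TPM in Fb-Epn, 212 to 225 TPM in Fb-Par and 69.0 to 72.9 TPM in Fb-Skn. The 7 markers of pericytes and smooth muscle summed to 43.6 to 50.7 TPM in Fb-Epn, 319 to 336 TPM in Fb-Par and 150 to 155 TPM in Fb-Skn, where Rgs5 and Kcnj8 were at 0. Myh11 (mean of 24.6 TPM in Fb-Epn and 125 TPM in Fb-Skn) and Cspg4 (8.48 and 26.4 TPM) set the order of the sums of Fb-Epn and Fb-Skn, whereas the other 5 markers (Rgs5, Abcc9, Kcnj8, Notch3 and Des) were higher in Fb-Epn than Fb-Skn, and all 7 were called. The 3 perineurial markers summed to 156 to 163 TPM in Fb-Epn, 41.3 to 46.7 TPM in Fb-Par and 75.3 to 84.1 TPM in Fb-Skn, where Cldn1 was at 0. Slc2a1, a glucose transporter, made up most of these sums (means of 145, 34.9 and 69.0 TPM in the same order). Itgb4 followed the same order of types (13.7, 8.51 and 11.2 TPM). Cldn1 was instead higher in Fb-Par (4 to 7 counts) than Fb-Epn (0 to 3 counts), and was not among the tested genes. The 5 adipocyte markers summed to 44.1 to 58.1 TPM in Fb-Epn, 16.2 to 16.95 TPM in Fb-Par and 1.26 to 1.45 TPM in Fb-Skn, with Cidec at 0 in every type. Fabp4 (means of 51.4, 16.4 and 0.498 TPM in the same order) made up most of the sums of the nerve-derived types. Lep was found in Fb-Skn only (mean of 0.729 TPM). The 6 endothelial markers with a row summed to 11.6 to 11.9 TPM in Fb-Epn, 9.77 to 10.9 TPM in Fb-Par and 1.00 to 1.56 TPM in Fb-Skn, where Cdh5, Emcn and Cldn5 were at 0. Tek made up most of the sums of the nerve-derived types (mean of 8.37 TPM in Fb-Epn and 10.2 TPM in Fb-Par). Cdh5 (1.78 and 0.0968 TPM), Kdr, Emcn, Vwf and Cldn5 were instead higher in Fb-Epn than Fb-Par, where Cldn5 was at 0. Of these, Cdh5 alone was called, and all were low. The 6 keratinocyte markers summed to 2.17 to 4.36 TPM over the 9 libraries, with Krt1 at 0 in every type. The part of these cells in the differences below was not tested, and in bulk RNA fewer cells of a type and less RNA per cell cannot be told apart.

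The SLRP genes lay in clusters in the coordinates of the tables (rn6). Dcn (chr7:38742051-38782323), Lum (chr7:38819771-38826862) and Kera (chr7:38858062-38865515) followed each other on the plus strand of chromosome 7. Prelp (chr13:50749514-50761355, minus strand) and Fmod (chr13:50873605-50885563, plus strand) were 112250 bases apart on chromosome 13. Bgn (chrX:157319046-157331204, minus strand) had no other member near it. Neighbours on chromosome 7 had very unlike levels, with Dcn at 1094 to 2614 TPM, Lum at 184 to 425 TPM and Kera at 0. The 250 bases before the start of Lum and of Kera are printed because 1 of these neighbours was abundant and the other at 0 counts. Those of Fmod are printed because it differed in the opposite direction to Lum between Fb-Epn and Fb-Par. The sequences are RefSeq's (GRCr8, whose coordinates are not those of rn6), 5′ to 3′ on the plus strand, with capitals for the motif matches named below.
Lum, chr7:34245456-34245705: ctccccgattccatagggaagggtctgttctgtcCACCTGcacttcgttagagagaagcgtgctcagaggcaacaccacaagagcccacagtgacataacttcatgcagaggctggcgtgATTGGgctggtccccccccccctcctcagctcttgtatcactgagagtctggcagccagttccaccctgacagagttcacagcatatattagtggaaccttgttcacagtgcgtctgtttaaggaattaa
Kera, chr7:34283850-34284099: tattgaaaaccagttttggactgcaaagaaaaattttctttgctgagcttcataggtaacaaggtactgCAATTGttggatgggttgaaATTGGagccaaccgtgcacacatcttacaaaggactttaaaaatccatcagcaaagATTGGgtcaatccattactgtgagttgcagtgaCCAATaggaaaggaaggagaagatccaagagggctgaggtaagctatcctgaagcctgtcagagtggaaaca
Fmod, chr13:48045317-48045566: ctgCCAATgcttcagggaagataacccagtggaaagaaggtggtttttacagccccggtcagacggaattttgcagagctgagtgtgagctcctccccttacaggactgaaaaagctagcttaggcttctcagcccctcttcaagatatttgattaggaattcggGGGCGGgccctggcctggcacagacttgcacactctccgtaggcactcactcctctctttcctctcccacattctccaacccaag

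Both strands of these windows were searched for the TATA box (TATAAA), the CCAAT box (CCAAT), the GC box (GGGCGG), the E box (CANNTG, with N for any base) and the AP-1 site (TGA and TCA with any base between them), and no match overlapped another in these 3 windows. Among 33469 RefSeq windows of the same length, 12.9% held a TATA box, 34.0% a CCAAT box, 30.5% a GC box, 65.5% an E box and 6.34% an AP-1 site. The Lum window held 1 E box and 1 CCAAT box. The Kera window held 1 E box and 3 CCAAT boxes, the nearest at -72 to -68 from the start. The Fmod window held 1 CCAAT box, and 1 GC box at -85 to -80. The windows of Lum and Fmod were each 52.8% G and C and that of Kera 41.6%, against a median of 51.2% over all windows. A match is a description of letters and not a binding site. Entries for 7 of the 10 members were found, and the windows of Dcn, Bgn and Prelp are not printed.

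Biglycan and decorin made up most of the SLRP RNA in every type. Together the members with a row summed to 6143 ± 136 TPM in Fb-Epn, 7747 ± 161 TPM in Fb-Par and 5727 ± 146 TPM in Fb-Skn (SD, n = 3 samples each). Of that sum, Bgn held 57.9% in Fb-Par, against 74.1% in Fb-Epn and 71.9% in Fb-Skn. Dcn held 33.1% in Fb-Par, against 18.0% in Fb-Epn and 23.3% in Fb-Skn. Relative to Col1a1, the main chain of type I collagen, the sum was lowest in Fb-Skn (27.2% ± 0.196), higher in Fb-Epn (38.7% ± 0.641) and highest in Fb-Par (56.5% ± 2.11). This order depends on the chain chosen, and chains other than Col1a1 and Col3a1 were not compared with the sum. Mean Col1a1 was itself highest in Fb-Skn (21077 TPM, against 15869 for Fb-Epn and 13724 for Fb-Par). Mean Col3a1 was instead lowest in Fb-Skn (4469 TPM, against 8348 for Fb-Par and 13024 for Fb-Epn). The mean sum exceeded mean Col3a1 in Fb-Skn alone, so relative to that chain Fb-Skn was highest. The order of the members by mean TPM was Bgn, Dcn, Lum and Prelp in all 3 types, followed by the low genes Fmod, Ogn and Aspn, whose order differed between types. The order, sums and shares use the row under each symbol alone. Further rows of Ogn and Aspn, given below, had means of up to 75.2 and 18.7 TPM, both in Fb-Par, so the places of these 2 genes are uncertain. In Fb-Epn, Lum (239 ± 8.06 TPM) and Prelp (232 ± 11.4 TPM) did not differ beyond their spread. No test was made of these sums, since the members were chosen with results known.

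**Figure D1:**
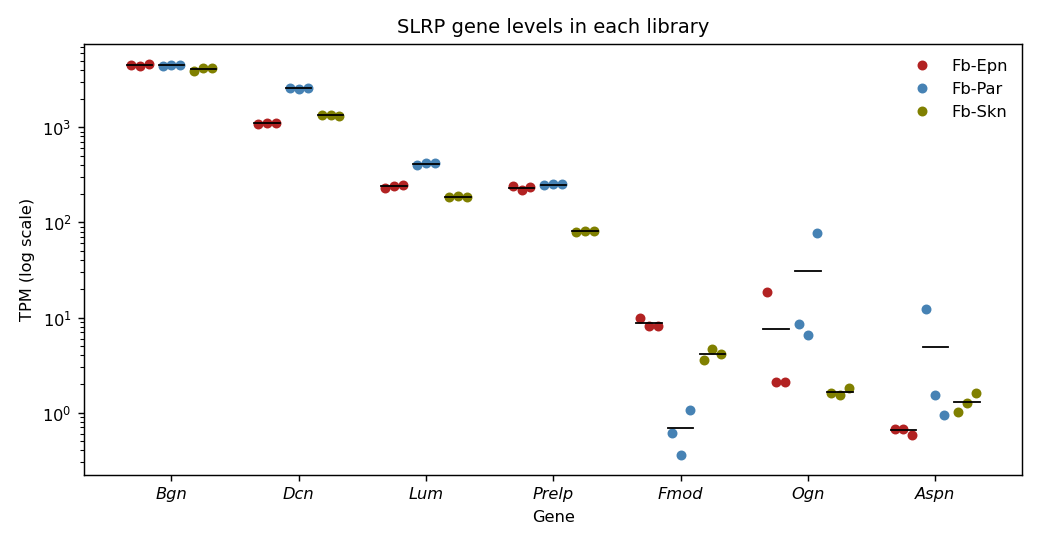
TPM of the 7 detected SLRP genes on a log axis, with a point for each of 3 libraries per fibroblast type and a line at the mean. Bgn, Dcn, Lum and Prelp have tight triplets, whereas Ogn is far higher in 1 Fb-Epn and 1 Fb-Par library and Aspn in 1 Fb-Par library.

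Biglycan, a class I proteoglycan with a pair of glycosaminoglycan chains, was the most abundant member. Its TPM were 4529, 4447 and 4675 in Fb-Epn, 4367, 4527 and 4553 in Fb-Par, and 3943, 4176 and 4234 in Fb-Skn. All libraries were thus within a narrow range, and those of Fb-Skn were lowest on the TPM scale. The edgeR log2 fold change was 0.0047 between Fb-Epn and Fb-Skn (95% interval, -0.049 to 0.058, adjusted p = 0.89). It was 0.032 between Fb-Epn and Fb-Par (-0.021 to 0.085, edgeR adjusted p = 0.31) and -0.027 between Fb-Par and Fb-Skn (-0.080 to 0.026, edgeR adjusted p = 0.37). On the TPM scale the median over all tested genes was itself 0.13 to 0.14 (log2) higher in Fb-Epn than Fb-Skn and 0.12 to 0.14 higher in Fb-Par, a shift that TMM removes. With library size only or limma on TPM, Bgn was called between Fb-Epn and Fb-Skn, at a log2 fold change of at most 0.14.

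Decorin, the class I relative that carries a single chain and binds TGF-beta, was highest in Fb-Par. Its TPM were 1094, 1099 and 1122 in Fb-Epn, 2570, 2505 and 2614 in Fb-Par, and 1345, 1357 and 1307 in Fb-Skn. No library of one type overlapped another type. Dcn was lower in Fb-Epn than Fb-Par, at a log2 fold change of -1.20 (95% interval, -1.26 to -1.14, edgeR adjusted p = 5.4e-14). It was also lower in Fb-Epn than Fb-Skn, at -0.41 (-0.47 to -0.36, edgeR adjusted p = 8.8e-09), and higher in Fb-Par than Fb-Skn, at 0.79 (0.73 to 0.85, edgeR adjusted p = 4.7e-12). The 2 nerve-derived types thus lay on opposite sides of Fb-Skn for this gene.

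Lumican, a keratan sulfate proteoglycan of class II, also had its highest level in Fb-Par, but Fb-Skn was lowest. Its TPM were 230, 242 and 246 in Fb-Epn, 401, 420 and 425 in Fb-Par, and 187, 187 and 184 in Fb-Skn, without overlap. Lum was higher in Fb-Par than Fb-Skn by 1.01 (log2, 95% interval, 0.93 to 1.09, edgeR adjusted p = 1.4e-11). It was lower in Fb-Epn than Fb-Par, at -0.78 (-0.87 to -0.70, edgeR adjusted p = 2.6e-10), and slightly higher in Fb-Epn than Fb-Skn, at 0.22 (0.14 to 0.31, edgeR adjusted p = 0.00019).

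Prelp, a class II protein with a basic amino-terminal region that binds heparan sulfate, set both nerve-derived types apart from skin. Its TPM were 241, 219 and 235 in Fb-Epn, 247, 251 and 251 in Fb-Par, and 78.9, 81.7 and 80.8 in Fb-Skn. Every nerve-derived library was above 200 TPM and every Fb-Skn library under 100 TPM. Prelp was higher in Fb-Epn than Fb-Skn by 1.38 (log2, 95% interval, 1.30 to 1.47, edgeR adjusted p = 3.1e-13) and exceeded Fb-Skn by 1.48 in Fb-Par (1.40 to 1.56, edgeR adjusted p = 1.3e-13). Between Fb-Epn and Fb-Par the difference was -0.10 (-0.17 to -0.02) and was not called (edgeR adjusted p = 0.034).

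Fibromodulin, the class II relative of lumican that binds the same region of collagen, was highest in Fb-Epn and lowest in Fb-Par. Its TPM were 9.99, 8.14 and 8.10 in Fb-Epn, 0.617, 0.357 and 1.07 in Fb-Par, and 3.57, 4.68 and 4.17 in Fb-Skn. The counts behind the Fb-Par values were 12, 6 and 19, against 146 to 178 in Fb-Epn and 69 to 79 in Fb-Skn, and the 3 types did not overlap. Fmod was higher in Fb-Epn than Fb-Par by 3.67 (log2, 95% interval, 3.12 to 4.22, edgeR adjusted p = 1.7e-08), and lower in Fb-Par than Fb-Skn, at -2.73 (-3.31 to -2.15, edgeR adjusted p = 6.5e-07). Between Fb-Epn and Fb-Skn the log2 fold change was 0.94 (0.51 to 1.37, edgeR adjusted p = 0.0012). That last call was lost without the first Fb-Epn library, where the log2 fold change was 0.84 and the edgeR adjusted p was 0.010, and with limma on log2(TPM + 0.1), at 1.06 and a limma adjusted p of 0.015.

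**Figure D2:**
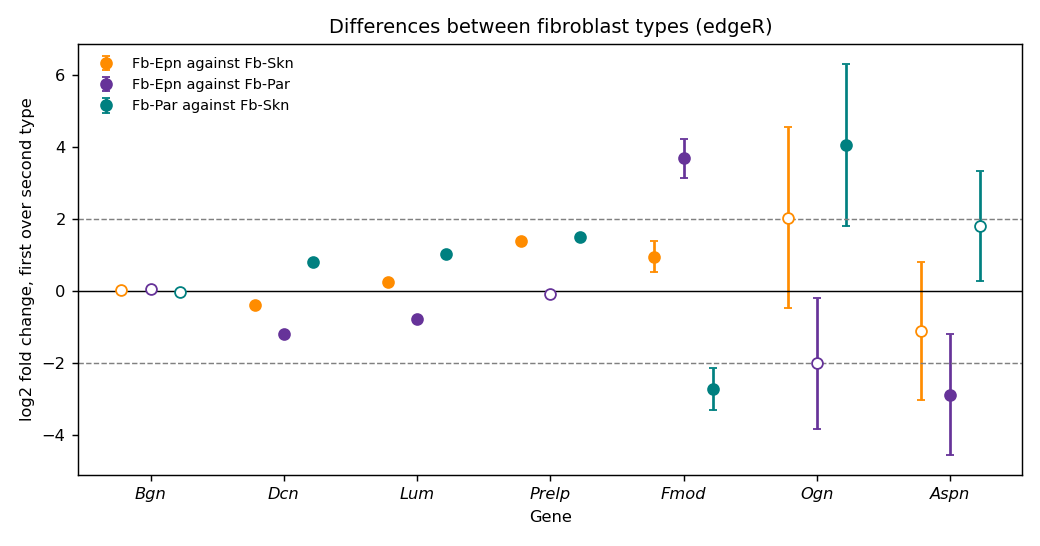
log2 fold changes of the 7 tested SLRP genes in the 3 comparisons, with 95% intervals. Filled points passed the adjusted p of 0.01, open points did not, and dashed lines mark -2 and 2. Intervals are narrow for Bgn, Dcn, Lum and Prelp and span several log2 units for Ogn and Aspn.

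The ratios of Dcn to Bgn, Lum to Fmod, Dcn to Lum and Fmod to Prelp differed between the types, with no overlap of libraries. Planned pairs with Ogn, Omd and Aspn are not given, and neither is the share of all gene pairs without overlap. Dcn was 0.241, 0.247 and 0.240 of Bgn in Fb-Epn, 0.589, 0.553 and 0.574 in Fb-Par, and 0.341, 0.325 and 0.309 in Fb-Skn. Lum was 23.1, 29.7 and 30.3 times Fmod in Fb-Epn, 650, 1179 and 396 times in Fb-Par, and 52.2, 40.0 and 44.2 times in Fb-Skn. Dcn was 4.54 to 4.75 times its neighbour Lum in Fb-Epn, 5.96 to 6.41 times in Fb-Par and 7.09 to 7.25 times in Fb-Skn. The Lum to Fmod ratio in Fb-Par rests on 6 to 19 counts of Fmod per library. No ratio was tested.

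**Figure D3:**
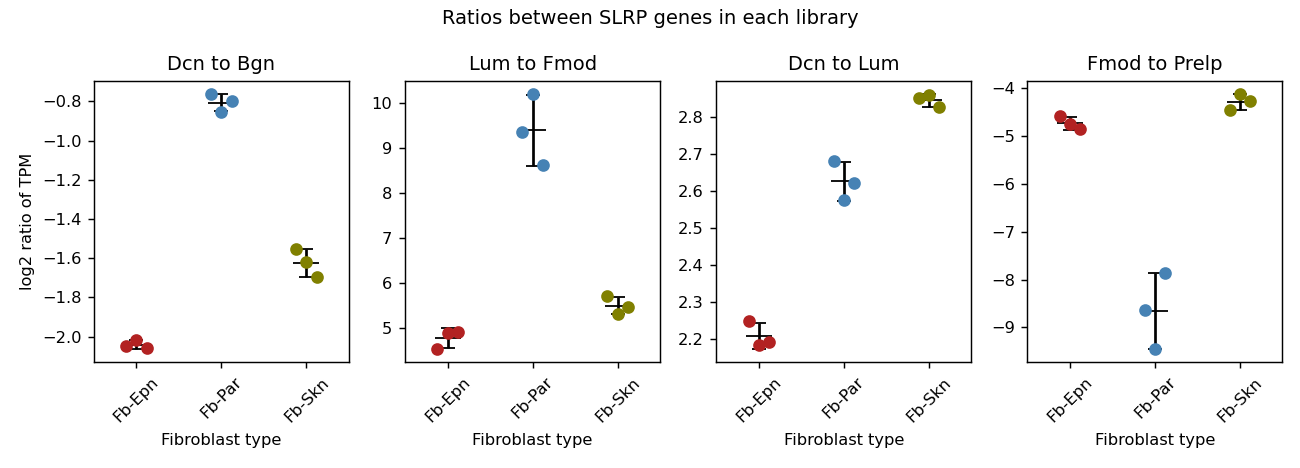
log2 ratios of TPM between pairs of SLRP genes, with a point per library and the mean ± SD of 3 samples per type in black, each panel with its own scale. Dcn to Bgn and Lum to Fmod are highest in Fb-Par, Fmod to Prelp is lowest there, and Dcn to Lum is highest in Fb-Skn.

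Counted over the members, 4 of 7 were called between Fb-Epn and Fb-Skn, against 43.9% of all tested genes. Of these, 3 were higher in Fb-Epn (Lum, Fmod and Prelp, background 23.0%) and 1 was lower (Dcn, background 20.9%). None passed both there in the main edgeR fit, against 8.44% of all genes. Ogn alone was beyond the fold, at a log2 fold change of 2.03 (edgeR unadjusted p = 0.10, adjusted p = 0.16). DESeq2 gave Ogn no adjusted p and so could not call it. An edgeR fit on all genes of at least 1 count gave 1 such member, as stated below. Between Fb-Epn and Fb-Par, 4 of 7 were called, against 38.8%, with 1 higher in Fb-Epn (Fmod, background 20.2%) and 3 lower (Dcn, Lum and Aspn, background 18.6%). Fmod and Aspn passed the fold, against 6.48% of all genes. Between Fb-Par and Fb-Skn, 5 of 7 were called, against 45.6%, with 4 higher in Fb-Par (Dcn, Lum, Prelp and Ogn, background 23.2%) and 1 lower (Fmod, background 22.4%). Fmod and Ogn passed the fold, against 8.54%. The median log2 fold change of the 7 members was 0.22, -0.78 and 1.01 in these comparisons, beside -0.0028, -0.00018 and -0.012 over all tested genes. The comparisons share their libraries, so they are not independent of each other.

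Osteoglycin, the class III member, and asporin, the class I member with an aspartate-rich stretch, varied widely between libraries of the same type. The row Ogn held 139, 18 and 16 counts in Fb-Epn, 70, 47 and 572 in Fb-Par, and 13, 11 and 13 in Fb-Skn. The row Aspn held 8, 9 and 7 counts in Fb-Epn, 156, 17 and 11 in Fb-Par, and 13, 14 and 18 in Fb-Skn. A single library thus held most of the counts of Ogn in Fb-Epn and in Fb-Par and of Aspn in Fb-Par. In normalized CPM, the highest library was 11.5 times the lowest for Ogn in Fb-Par, 8.78 times for Ogn in Fb-Epn and 12.9 times for Aspn in Fb-Par. Of the genes with at least 10 counts in every library of the type, 0.130%, 0.169% and 0.0894% varied at least as much, and the median ratio was 1.14 in both types.

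The calls of these genes changed when some of the libraries were left out. Ogn was higher in Fb-Par than Fb-Skn by 4.05 (log2, 95% interval, 1.79 to 6.31, edgeR adjusted p = 0.0045), and by 2.05 without the third Fb-Par library (edgeR adjusted p = 0.045). The edgeR call was also lost when any 1 of the Fb-Skn libraries was left out, with adjusted p of 0.019 to 0.020 at log2 fold changes of 4.00 to 4.11. Ogn differed by 2.03 between Fb-Epn and Fb-Skn (-0.47 to 4.53, edgeR adjusted p = 0.16) and by 0.22 without the first Fb-Epn library. Between Fb-Epn and Fb-Par it was at -2.02 (-3.84 to -0.20, edgeR adjusted p = 0.062), at -0.0089 without the third Fb-Par library, and at -3.83 without the first Fb-Epn library, where it was called (edgeR adjusted p = 0.0064). Aspn was lower in Fb-Epn than Fb-Par, at -2.90 (-4.57 to -1.22, edgeR adjusted p = 0.0066), but at -0.91 without the first Fb-Par library (edgeR adjusted p = 0.11). That call was also lost, at about the same fold, without any 1 of the Fb-Epn libraries (log2 fold changes of -2.93 to -2.83, edgeR adjusted p of 0.024 to 0.025) and without the second Fb-Skn library (-2.90, edgeR adjusted p = 0.010). Aspn was not called between Fb-Epn and Fb-Skn (-1.11, edgeR adjusted p = 0.31) or between Fb-Par and Fb-Skn (1.78, edgeR adjusted p = 0.045). The latter value turned to -0.20 without the first Fb-Par library (edgeR adjusted p = 0.70) and was called at 2.27 without the third (edgeR adjusted p = 0.0064).

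Both genes lie in a stretch of chromosome 17 that the rn6 tables list more than once. The row Ogn (chr17:15447716-15467359) and the row Aspn (chr17:15495790-15519282) are in one copy, and the row Omd (chr17:14635184-14637832) in the other, all on the minus strand. The gene identifiers in the tables give the RefSeq number of Ogn to NEWGENE_1308171 (chr17:14607442-14627937), that of Aspn to Aspnl1 (chr17:14656009-14679409) and that of Omd to LOC103690116 (chr17:15475710-15484269). RefSeq's GRCr8 assembly has 1 entry for each of the 3 genes. The counts of each gene can therefore be divided between rows, and the values of these 3 members are uncertain by row. The rows Ogn and Aspn also overlap Cenpp on the plus strand, and whether the counting used strand is not given in the sources used here. The unnamed transcript AABR07072539.6, on the plus strand 780 bases from Ogn, had counts of 87, 14 and 13 in Fb-Epn, 49, 35 and 392 in Fb-Par, and 11, 11 and 12 in Fb-Skn, with its highest libraries the same as those of Ogn.

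With both rows summed, Ogn had 373, 96 and 392 counts in Fb-Epn, 296, 1540 and 1781 in Fb-Par, and 523, 310 and 402 in Fb-Skn. The row Ogn held between 2.49% and 37.3% of these counts, and its share differed within each nerve-derived type. Summed Aspn had 23, 37 and 14 counts in Fb-Epn, 201, 53 and 360 in Fb-Par, and 224, 52 and 162 in Fb-Skn, of which the row Aspn held 3.06% to 77.6%. The summed rows of Omd, the osteomodulin known from bone, had 0, 1 and 1 counts in Fb-Epn, 15, 8 and 4 in Fb-Par, and 1, 3 and 1 in Fb-Skn, so its RNA was detected at a few counts although the row Omd was at 0.

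The sums, an alternative chosen after seeing the data, moved the comparisons. Summed Ogn was lower in Fb-Epn than Fb-Par, at a log2 fold change of -2.13 (edgeR adjusted p = 0.0048). It was no longer called between Fb-Par and Fb-Skn (1.42, edgeR adjusted p = 0.032) and turned from 2.03 to -0.71 between Fb-Epn and Fb-Skn (edgeR adjusted p = 0.32). Summed Aspn was lower in Fb-Epn than Fb-Par (-3.08, edgeR adjusted p = 0.00078) and lower than in Fb-Skn (-2.76, edgeR adjusted p = 0.0018), while Fb-Par and Fb-Skn differed by 0.32 (edgeR adjusted p = 0.61). The sums still varied within types, by 6.61 times for Ogn and 6.43 times for Aspn between the lowest and highest Fb-Par library.

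**Figure D4:**
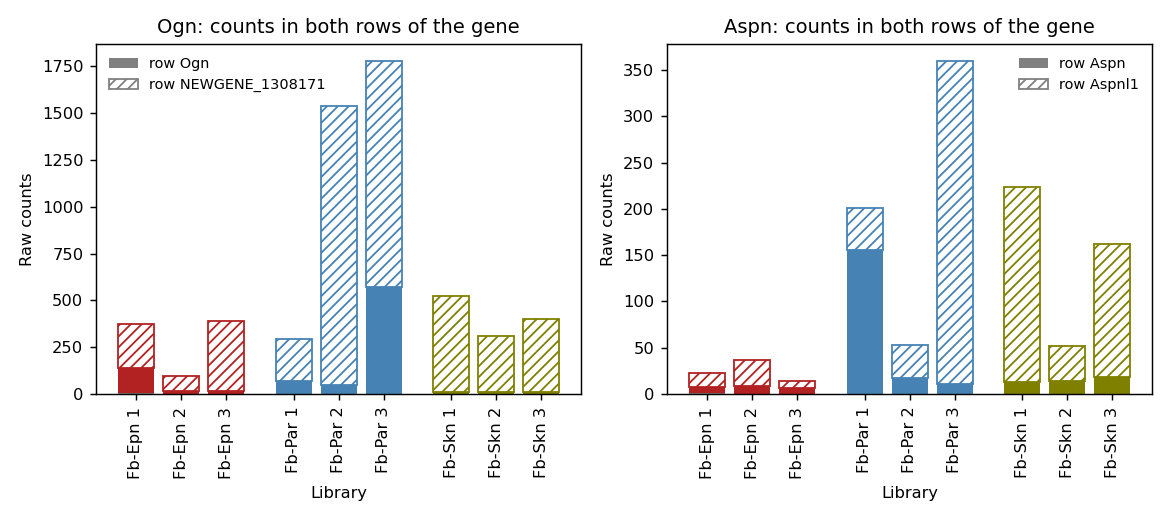
Raw counts per library in the 2 rows of Ogn (left) and of Aspn (right), stacked, with solid bars for the row under the symbol and hatched bars for the other row. The solid part is tallest in the third Fb-Par library for Ogn and in the first Fb-Par library for Aspn, and the stacked height of Aspn stays at 37 counts or fewer in Fb-Epn.

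For members with a high level or past the fold, the tested genes with the closest profile over the 9 libraries were found by the root mean square (RMS) difference of centred log2(TPM + 1). The profile of Dcn was closest to those of Oaf and Ugp2 (RMS 0.044 and 0.047, beside a median of 0.56 over all genes). That of Lum was closest to Col4a4, a basement membrane collagen chain, and Sept11 (0.047 and 0.056, median 0.51). Col4a4 was near the floor, with a mean of 1.53 TPM in Fb-Par against 0.458 in Fb-Epn and 0.0982 in Fb-Skn, a level at which the pseudocount of 1 compresses differences. Sept11 had means of 297 TPM in Fb-Par, 171 in Fb-Epn and 129 in Fb-Skn. That of Fmod was closest to Plk1 and Ccnb1, which act in mitosis (0.14 and 0.15, median 1.11). Fmod was itself at 0.357 to 1.07 TPM in Fb-Par, where the same pseudocount compresses its differences. Plk1 had a mean of 4.04 TPM in Fb-Par, against 28.0 in Fb-Epn and 13.2 in Fb-Skn, and Ccnb1 had 5.28 TPM in Fb-Par, against 33.6 and 17.4. Bgn was closest to Mrps2 and Nab1 (0.028 and 0.031, median 0.24). Ogn was closest to its neighbour AABR07072539.6 (0.16) and then to Rsl1d1l1 (0.98, median 1.59), and Aspn to RGD1564606 and LOC100362453 (0.57 and 0.58, median 0.92). The match of Ogn to AABR07072539.6 is one of TPM, and the FPKM of that transcript were near 0. These are descriptions over libraries of 3 types and carry no test.

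The genes that make, bind or cut SLRPs were followed through 7 lists of 86 genes, of which 78 were tested. Of these, 53 were called between Fb-Epn and Fb-Skn (27 higher and 26 lower in Fb-Epn), 50 between Fb-Epn and Fb-Par (25 and 25), and 57 between Fb-Par and Fb-Skn (32 higher and 25 lower in Fb-Par). These were 67.9%, 64.1% and 73.1% of the tested genes of the lists, beside 43.9%, 38.8% and 45.6% of all genes, and the difference was not tested. The median log2 fold change of the lists was 0.072, -0.060 and 0.13. The counts of single lists below are to be read beside the same shares of all genes. By list, the called share ran from 28.6% (keratan sulfate enzymes, Fb-Par against Fb-Skn) to 90.9% (collagens, both comparisons with Fb-Par). The sulfate and sugar donor genes, at 37.5%, 50.0% and 37.5%, were near the shares of all genes.

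Among the collagens that SLRPs bind, 9, 10 and 10 of 11 tested genes were called in the 3 comparisons. Col1a1 was lower in both nerve-derived types than in Fb-Skn, at -0.55 in Fb-Epn and -0.77 in Fb-Par (log2, edgeR adjusted p = 1.5e-12 and 3.2e-14), whereas Col3a1 was higher, by 1.40 and 0.75 (edgeR adjusted p = 4.4e-15 and 3.3e-12). Col5a1, which limits fibril width, was lower than in Fb-Skn, at -0.37 and -0.46 (edgeR adjusted p = 7.9e-09 and 5.1e-10), and Col6a1, of the beaded filaments that biglycan and decorin bind, was lower in Fb-Epn than Fb-Par, at -1.50 (edgeR adjusted p = 6.9e-16). Col14a1, a fibril-associated collagen that binds decorin, had 480, 497 and 491 TPM in Fb-Epn, 87.2, 84.3 and 92.8 in Fb-Par, and 27.9, 31.9 and 31.1 in Fb-Skn. Another fibril-associated collagen, Col12a1, had 353 to 383 TPM in Fb-Par against 3025 to 3505 TPM in Fb-Skn, a log2 fold change of -3.31 (edgeR adjusted p = 1.1e-15). Col11a1, a minor fibrillar chain, was higher in Fb-Par than Fb-Skn by 3.72 and lower in Fb-Epn than Fb-Par, at -2.12 (edgeR adjusted p = 6.8e-18 and 9.4e-16). Col1a2 and Col6a3 were not analysed here.

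Among the enzymes of the chondroitin and dermatan sulfate chains that decorin and biglycan carry, 14, 11 and 18 of 22 were called in the order Fb-Epn against Fb-Skn, Fb-Epn against Fb-Par and Fb-Par against Fb-Skn. Dse, the epimerase that turns chondroitin into dermatan sulfate, had 101, 99.0 and 95.4 TPM in Fb-Epn, 66.2, 64.1 and 62.2 in Fb-Par, and 84.0, 83.3 and 81.1 in Fb-Skn. It was thus lowest where Dcn was highest, at -0.52 in Fb-Par against Fb-Skn (edgeR adjusted p = 7.3e-08) and 0.63 in Fb-Epn against Fb-Par (edgeR adjusted p = 9.5e-09). The sulfotransferase Chst15 was lower in Fb-Par than Fb-Skn, at -3.10, and higher in Fb-Epn than Fb-Par, at 2.20 (edgeR adjusted p = 1.3e-07 and 8.4e-06). The sulfotransferase Chst13 had 9, 18 and 12 counts in Fb-Epn, 13, 13 and 8 in Fb-Par, and 1, 0 and 1 in Fb-Skn. Of the 7 tested enzymes of the keratan sulfate chains found on lumican and fibromodulin, 4, 3 and 2 were called in the same order. Chst1, which sulfates galactose in these chains, had 61, 77 and 85 counts in Fb-Epn, 46, 63 and 59 in Fb-Par, and 3, 8 and 8 in Fb-Skn. B3gnt7, which extends the chain, was higher in Fb-Epn than Fb-Skn by 2.41 (edgeR adjusted p = 0.00014). Of the 8 genes that supply sulfate and sugar donors, 3, 4 and 3 were called and none passed the fold in any comparison.

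Growth factors and receptors that bind SLRPs were called in 12, 11 and 11 of 14 cases. Tgfb1, the ligand bound by decorin, was not called in any comparison, with 123 to 136 TPM in Fb-Epn, 130 to 155 TPM in Fb-Par and 114 to 126 TPM in Fb-Skn. Bmp4, which biglycan binds, had 3.32, 3.43 and 3.28 TPM in Fb-Epn, 26.8, 27.5 and 25.8 in Fb-Par, and 1.87, 1.07 and 1.16 in Fb-Skn. Bmp2 was likewise higher in Fb-Par than Fb-Skn, by 2.56, and lower in Fb-Epn than Fb-Par, at -4.02 (edgeR adjusted p = 3.5e-08 and 1.1e-09). Egfr, a receptor for decorin, was higher than in Fb-Skn by 2.46 in Fb-Epn and by 2.41 in Fb-Par (edgeR adjusted p = 1.4e-11 and 1.7e-11).

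Among the proteases that cut SLRPs, 8, 7 and 8 of 9 tested genes were called. Bmp1, which removes the propeptide of biglycan, was lower than in Fb-Skn, at -0.74 in Fb-Epn and -0.38 in Fb-Par (edgeR adjusted p = 7.7e-10 and 9e-07). Its relative Tll1 had 21.1 to 23.8 TPM in Fb-Epn, 103 to 107 TPM in Fb-Par and 19.7 to 20.6 TPM in Fb-Skn. Adamts5 had 112 to 120 TPM in Fb-Epn, 114 to 125 TPM in Fb-Par and 6.94 to 7.28 TPM in Fb-Skn, so that, as for Prelp, the nerve-derived types did not overlap skin. Mmp3 showed the opposite, with 158, 169 and 143 counts in Fb-Skn against 4 to 16 in Fb-Epn and 1 to 3 in Fb-Par.

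Other leucine-rich repeat genes of the matrix were called in 3, 4 and 5 of 7 tested cases. Epyc (epiphycan, class III), the next gene after Kera on chromosome 7, had 18, 26 and 24 counts in Fb-Epn, 4, 5 and 9 in Fb-Par, and 0, 0 and 1 in Fb-Skn. Podnl1, a relative of podocan, was highest in Fb-Skn, with 23.9, 25.9 and 27.1 TPM against 9.26, 7.61 and 7.93 in Fb-Epn and 3.56, 4.47 and 2.58 in Fb-Par. Chadl had 27, 18 and 22 counts in Fb-Par, 5, 7 and 4 in Fb-Epn, and 3, 7 and 1 in Fb-Skn. Ecm2 was not analysed here.

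**Figure D5:**
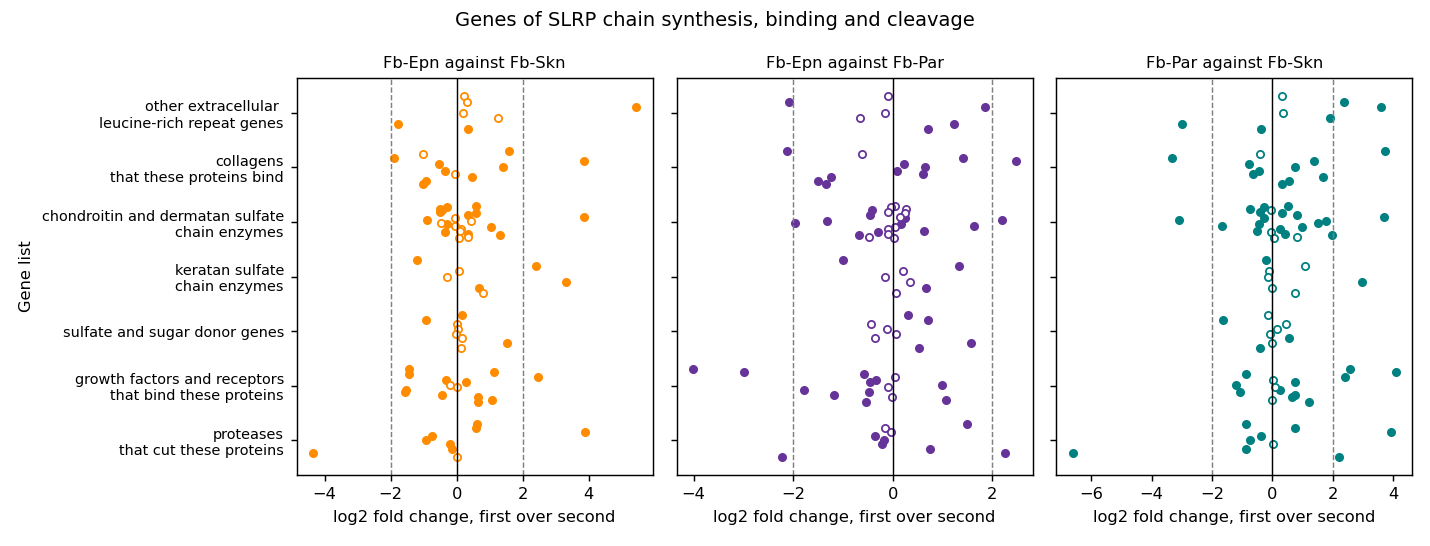
log2 fold changes of the 78 tested genes that make, bind or cut SLRPs, by list and comparison. Each point is a gene, filled where the adjusted p was under 0.01, and dashed lines mark -2 and 2. Each list holds genes on both sides of 0.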

How the data were processed

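The authors deposited raw counts per gene, and tables of TPM and FPKM for the same genes, for 9 libraries. The submitters' processing notes name FastQC 0.11.7, Trimmomatic 0.38, HISAT2 2.1.0, featureCounts 1.6.3 and the build rn6. The annotation release and strand setting are not given in the sources used here. Libraries were grouped by their labels. Counts were tested with edgeR 4.0.16 in R 4.3.3 (TMM, default expression filter, quasi-likelihood F test, all 9 libraries in 1 model), and Benjamini-Hochberg adjustment covered the 13273 tested genes of a comparison. TMM factors were 0.955 to 1.03 and the common coefficient of variation was 8.25%. The deposited TPM gave levels, sums and ratios, and the deposited FPKM an alternative to the sums. Alternatives were DESeq2 1.42.0, limma 3.58.1 on log2(TPM + 1) and log2(TPM + 0.1), other normalizations and filters, only the 2 types compared, a replicate block and leaving out each library. Tables and figures were made in Python 3.11.15 (numpy 2.4.6, pandas 2.3.3, matplotlib 3.10.9, scipy 1.17.1). The count model was tested on simulated data, where all 200 genes changed in Fb-Epn were recovered against either other type, with 0 false calls. Every simulated gene had about the common spread. The changed genes were well counted and their change was set well past the fold, so their recovery was likely from the start. Smaller changes, such as those of Dcn, Lum and Prelp, were not simulated. The fitted coefficients of variation of Ogn (69.5%), Aspn (56.8%) and Fmod (14.5%) were larger, so the simulation does not bear on their calls. All members are named, with partner genes past the adjusted p and the fold and a few chosen whatever their values (Col1a1, Col3a1, Col5a1, Col6a1, Col14a1, Tgfb1, Bmp1 and Dse). For the 3 most abundant members and those past the fold, the 2 closest profiles are named. The members and lists were chosen with earlier results of these data known. Columns of annotation terms were not used. A marker of the Schwann cell list is not reported here and was left out of its sum. A two-sided exact permutation of 3 against 3 values reaches p = 0.1 at the lowest.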

Additional observations from a re-analysis of the deposited data

How the results depend on the processing

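Over the alternatives, 224 of 246 values of the counts, sums and ratios stayed within the limit set for each (1.5 times for a count, 1 SD for a sum or ratio). Of 411 values of single members' log2 fold changes, 376 kept their direction and their side of the threshold, 18 lost the call, 10 gained it and 7 changed sign. Members past the adjusted p and the fold between Fb-Epn and Fb-Skn went from 0 to 1 with all genes of at least 1 count and with the rows of chromosome 17 summed (the latter chosen after seeing the data). Between Fb-Epn and Fb-Par, members past the adjusted p fell from 4 to 2 with at least 10 counts in every library, a filter that Fmod and Aspn did not pass. There, members also past the fold went from 2 to 0 with that filter and to 1 with limma at either pseudocount, with only the 2 types compared and with the replicate block, and were 1 to 2 with a library left out. Between Fb-Par and Fb-Skn they went from 2 to 1 with DESeq2, limma on log2(TPM + 0.1), the filter of 10 counts and the summed rows, and to 0 with limma on log2(TPM + 1), and were 1 to 2 with a library left out. DESeq2 gave Ogn no adjusted p, so its call there is not counted as lost.

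The sign of Bgn turned where its change was near 0. It was -0.011 to 0.020 between Fb-Epn and Fb-Skn with a library left out, and in Fb-Par against Fb-Skn it went from -0.027 to 0.068 with library size only and to 0.12 with limma at either pseudocount. Ogn between Fb-Epn and Fb-Skn turned to -0.71 with summed rows, and Aspn between Fb-Par and Fb-Skn was -0.20 to 2.27 with a library left out. The log2 ratio of summed member levels went from 0.10 to 0.045 (Fb-Epn against Fb-Skn) and from 0.44 to 0.37 (Fb-Par against Fb-Skn) with FPKM in place of TPM. Other than where the construction shows it, the cause was not tested. The deviations of samples with equal replicate numbers from their type means correlated at -0.080 to 0.020, and those with other numbers at -0.045 to 0.089. Equal numbers were thus no more alike. This cannot exclude a shared animal or culture, since the 3 samples of a type may be technical, and no source used here states a pairing. The replicate block left 4, 3 and 5 members called in place of 4, 4 and 5, and Aspn between Fb-Epn and Fb-Par was then at an edgeR adjusted p of 0.013. Fmod in Fb-Par and the rows of Ogn, Aspn and Omd rest on few counts, which limits their values.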
